A study of Mus musculus with 2 samples.

Results

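Tau and 7 other microtubule-associated protein genes, Mapt, Map1a, Map1b, Map2, Map4, Map6, Map7d1 and Map7d2, were described in mouse hippocampus. They were chosen by gene symbol, as 8 of the 55536 annotated genes of the deposited gene tables, and have 83 annotated transcripts. The data came from total RNA of the hippocampus (labelled as a layer of it) of male mice aged 8 to 10 months. Their strain, B6CASTF1/J, comes from crossing C57BL/6J with CAST/EiJ. Each of 2 animals, numbered 2 and 4 in the labels, gave 1 library, here called replicate 1 and replicate 2. Each library was made from 300 ng of RNA with ribosomal RNA reduced, ERCC spike-ins (synthetic control RNAs) added and the strand kept. No treatment or genotype contrast is labelled, so the values are levels in 1 group with the spread over 2 animals. No test between conditions was possible.

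Microtubules are hollow polymers of tubulin that give axons and dendrites their shape and serve as tracks for motor proteins. Structural microtubule-associated proteins bind along the polymer and set its stability, its spacing and the access of motors. Tau, the product of Mapt, is known as the axonal member and as the protein of neurofibrillary tangles, while MAP2 is the classic marker of dendrites and MAP4 is found in many cell types. These 3 proteins form a family that shares repeated microtubule-binding motifs near the C-terminus, and splicing decides how many motifs a protein carries. MAP1A and MAP1B are each made as a precursor that is cleaved into a heavy and a light chain, with MAP1B best known in growing axons and MAP1A in mature neurons. MAP6 protects microtubules from cold and MAP7 proteins help recruit kinesin-1 to the track.

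Map2 and Map4 share an exon that encodes an optional binding repeat, and its sequence is shown because splice results below turn on whether it is kept. The exon has 93 bases in each of these genes. In GENCODE M21 transcripts on GRCm38/mm10, capitals mark the 59 of 93 bases that both genes share, read 5′ to 3′.
Map2, chr1:66431527-66431619, + strand: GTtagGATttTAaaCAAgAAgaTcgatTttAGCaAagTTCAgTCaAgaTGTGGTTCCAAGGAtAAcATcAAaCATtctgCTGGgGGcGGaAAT
Map4, chr9:110072613-110072705, + strand: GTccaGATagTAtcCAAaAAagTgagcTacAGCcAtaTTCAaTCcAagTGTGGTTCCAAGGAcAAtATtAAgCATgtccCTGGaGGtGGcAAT
The exons were identical at 63.4% of bases, and the exon after each, of 82 bases, at 61.0%.

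The N-terminal choice of tau is set by exons of 87 bases each, which are shown because they separate the tau forms measured below. In the junctions, the 24 lower-case bases end the upstream exon and the 24 capitals begin the exon joined to it.
Mapt first insert, chr11:104287123-104287209, + strand: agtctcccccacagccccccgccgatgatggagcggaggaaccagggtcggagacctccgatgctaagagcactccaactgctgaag
Mapt second insert, chr11:104289908-104289994, + strand: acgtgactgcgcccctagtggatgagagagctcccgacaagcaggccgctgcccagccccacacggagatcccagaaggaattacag
Mapt-204, junction without the inserts: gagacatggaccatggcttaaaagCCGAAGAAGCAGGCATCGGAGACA
Mapt-201, junction with the inserts: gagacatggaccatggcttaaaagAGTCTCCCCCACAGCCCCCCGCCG
Map2 makes its high-molecular-weight protein by keeping an exon of 3741 bases at chr1:66412407-66416147. The junction that enters this exon and the one that leaves it out are shown for the same reason, again with the 24 bases of the downstream exon in capitals.
Map2-204, junction into the long exon: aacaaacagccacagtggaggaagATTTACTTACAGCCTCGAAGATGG
Map2-201, junction that leaves out the long exon: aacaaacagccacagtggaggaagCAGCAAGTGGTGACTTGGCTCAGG
Both Map2 junctions begin with the same exon end, and they differ from there on.

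Levels come from a pair of programs run by the authors. The first quantifier (tables with the columns of RSEM) gave the gene levels and transcript shares used unless stated, and the second (columns of kallisto) gave transcript levels that were summed per gene. Both divide reads that fit several transcripts among them. The libraries held 23458117 expected counts (replicate 1) and 29584307 (replicate 2), where an expected count is a read assigned to a gene after shared reads are divided. The 8 genes took 155399 counts, or 0.664%, in replicate 1 (95% Wilson interval 0.661 to 0.667%) and 188613 counts, or 0.639%, in replicate 2 (0.636 to 0.642%). These intervals cover counting error only. Markers of neurons, astrocytes and oligodendrocytes were all detected, and the 4 neuron markers summed to 2303 TPM in replicate 1 and 2342 TPM in replicate 2. TPM is a level per transcript length, with every library brought to an equal total. Of the marker lists, that of the choroid plexus was furthest apart between the libraries, with a summed level of 7.25 TPM in replicate 1 and 57.6 TPM in replicate 2 over 4 genes, all of them 1.5-fold or more lower in replicate 1. Their part in the values below was not tested. In bulk tissue, fewer cells of a type and less RNA per cell cannot be told apart.

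All 8 genes were at 1 TPM or more in both libraries, a level that 59.1% of the 22015 nuclear protein-coding genes reached. Map2 was the highest and Map6 the lowest, and Map2 ranked 62 among nuclear protein-coding genes by mean level. By mean TPM the order was Map2, Map1b, Map1a, Map4, Mapt, Map7d1, Map7d2 and Map6. Neighbours were counted as apart where both libraries of the higher gene lay above both of the lower gene, which held for 5 of 7 neighbour pairs. Map1b and Map1a overlapped, as did Map1a and Map4.

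**Figure D1:**
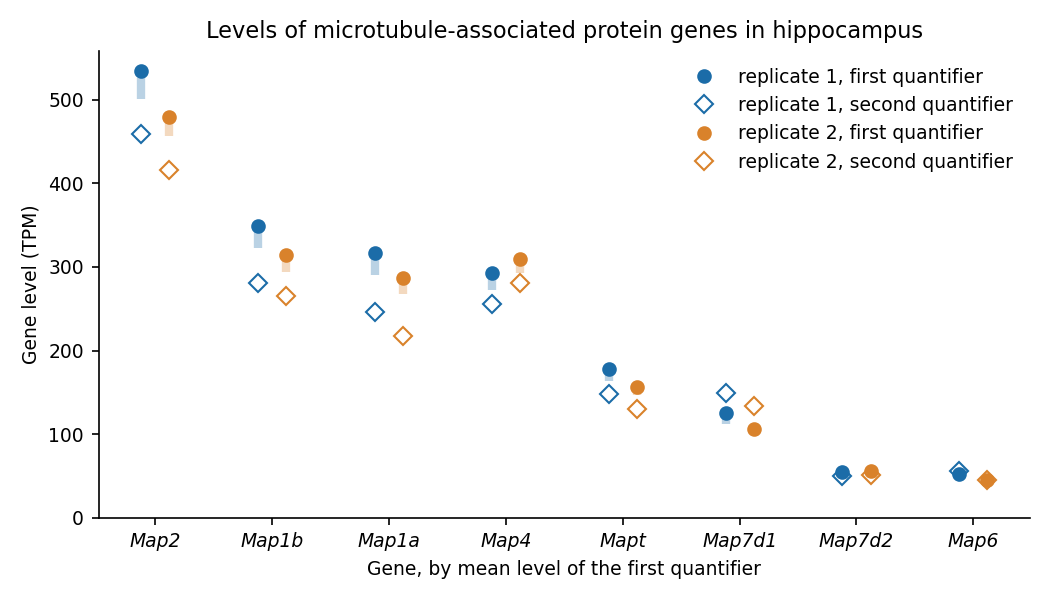
Gene level in TPM for the 8 genes in each library; circles are the first quantifier, open diamonds the second, and pale bars the deposited TPM bounds of the first. Map2 stands at 534 and 480 TPM by the first quantifier, while Map7d2 and Map6 stay between 45 and 57 TPM.

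Within the tau family, Map2 (ENSMUSG00000015222.17, chromosome 1, 66175273 to 66442583, + strand) had 534 TPM in replicate 1 and 480 TPM in replicate 2, a mean of 507 ± 38.2 (SD, n = 2), from 35747 and 43158 counts. Map4 (ENSMUSG00000032479.15, chromosome 9, 109931460 to 110083955, + strand) had 293 and 310 TPM in replicates 1 and 2, a mean of 302 ± 12.1, from 12608 and 17803 counts. Mapt (ENSMUSG00000018411.17, chromosome 11, 104231390 to 104332090, + strand) had 178 and 157 TPM in replicates 1 and 2, a mean of 167 ± 14.9, from 9194 and 11340 counts. By gene TPM, Mapt was thus the lowest of its family in both libraries, below Map4. This order is of whole genes and does not hold for their main transcripts. The Map4 transcript with the highest share, Map4-204, had 88.0 TPM in replicate 1 and 92.1 TPM in replicate 2. That of Mapt, Mapt-204, had 119 and 110 TPM. Mapt ranked 459 among nuclear protein-coding genes and Map4 176.

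The MAP1 precursors were at like levels. Map1b (ENSMUSG00000052727.6, chromosome 13, 99421446 to 99516540, − strand) had 350 TPM in replicate 1 and 314 TPM in replicate 2, a mean of 332 ± 25.2 (SD, n = 2). Map1a (ENSMUSG00000027254.13, chromosome 2, 121289600 to 121310832, + strand) had 317 TPM in replicate 1 and 287 TPM in replicate 2, a mean of 302 ± 21.3. Map1b was above Map1a within each library, but the ranges over the animals overlapped. Both genes make very long messages, and they took the most counts of the 8 genes: 44864 and 52927 for Map1b, and 43485 and 51569 for Map1a, in replicates 1 and 2.

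The stabilizing and motor-recruiting genes were lower. Map7d1 (ENSMUSG00000028849.17, chromosome 4, 126232167 to 126256343, − strand) had 125 TPM in replicate 1 and 107 TPM in replicate 2, a mean of 116 ± 12.9 (SD, n = 2). Map7d2 (ENSMUSG00000041020.14, chromosome X, 159414572 to 159498757, + strand) had 54.3 TPM in replicate 1 and 56.2 TPM in replicate 2, a mean of 55.2 ± 1.40. Within the MAP7 relatives, Map7d1 exceeded Map7d2 in both animals. Map6 (ENSMUSG00000055407.14, chromosome 7, 99267447 to 99337137, + strand) had 51.8 TPM in replicate 1 and 45.4 TPM in replicate 2, a mean of 48.6 ± 4.57, just below Map7d2 in each library. The counts behind these levels ran from 2598 to 5525 per library.

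The order in the middle depended on the program. By the second quantifier, Map2 had 459 TPM in replicate 1 and 415 TPM in replicate 2, and Mapt had 148 and 130 TPM. Map7d1, at 149 TPM in replicate 1 and 134 TPM in replicate 2, stood level with Mapt there, and the libraries of this pair overlapped. Map4, at 255 and 281 TPM, came above Map1a, at 247 TPM in replicate 1 and 218 TPM in replicate 2. By the second quantifier 4 of 7 neighbour pairs were apart, with Map1b and Map4, Map7d1 and Mapt, and Map7d2 and Map6 overlapping. The second quantifier over the first ranged from 0.770 for Map1a to 1.22 for Map7d1, against a median of 0.905 over detected nuclear protein-coding genes. The deposited TPM lay outside its own deposited bounds for 4 genes in replicate 1 (Map1a, Map1b, Map2 and Map4) and 3 in replicate 2 (Map1a, Map2 and Map4). The bounds were therefore used for the order alone, and by a looser rule that compared them only within each library. They separated 5 of 7 pairs in this way, with Map1a and Map4 and Map7d2 and Map6 overlapping. Across libraries Map1b and Map1a overlapped too. The lower bound of Map1b in replicate 2 was 294 TPM, below the upper bound of Map1a in replicate 1, 312 TPM.

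The 8 genes differed little between the animals. The log2 ratio of replicate 1 over replicate 2, from CPM (counts divided by library size) scaled by TMM, which assumes that most genes are alike, was 0.11 for Map6, 0.04 for Map1b, 0.03 for Map1a, 0.01 for Map2, −0.02 for Mapt, −0.09 for Map7d2, −0.09 for Map7d1 and −0.22 for Map4. None of the 8 was 1.5-fold or more apart, against 14% of the 16123 genes with a CPM of 1 or more in a library. It follows that none was 2-fold apart, against 6.64% of those genes. Among the 8710 nuclear protein-coding genes at a mean of 10 TPM or more, 1.57% were 1.5-fold or more apart, so the count of 0 is near that background. Each ratio rests on 1 library per animal and has no replicate check.

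The sign of these small ratios followed the scaling. Under TMM 4 of the 8 ratios were above 0, beside 45.2% of all tested genes. Under ERCC scaling all 8 were above 0, from 0.05 for Map4 to 0.37 for Map6, but the median of all tested genes moved to 0.23 there, against −0.03 under TMM. Map4, Map7d1 and Map7d2 were below the median of all tested genes, while Mapt, Map1a, Map1b, Map2 and Map6 were above it. A change of scaling moves all genes nearly alike, so it could not alter these places. The quantifier could: by the second, under TMM, Mapt (−0.103) and Map2 (−0.055) were also below the median of −0.043. In TPM as deposited, 6 genes were higher in replicate 1, and Map4 and Map7d2 were lower. Nuclear protein-coding genes together also held more TPM there, 508131 in replicate 1 against 485056 in replicate 2. The share of all genes higher in TPM was not taken, so this count is no result about the 8 genes.

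The leading transcript, the one with the highest share of its gene's TPM, was the same in both libraries for 8 of 8 genes by each quantifier, and the same by both quantifiers for 7 of 8. The exception was Map7d1. Of the 83 annotated transcripts, 10 were listed at 0 in both libraries by the first quantifier.

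Among the annotated models, most tau TPM was assigned to the form without N-terminal inserts. Mapt-204, of 5253 bases with a coding sequence of 1116 bases, held 66.8% of Mapt TPM in replicate 1 and 70.1% in replicate 2, a mean of 68.4 ± 2.33% (SD, n = 2). The second quantifier gave it 67.1% in replicate 1 and 71.8% in replicate 2. Mapt-201, which carries both inserts and codes over 1290 bases, held 6.37% in replicate 1 and 6.97% in replicate 2, and 9.67% and 8.58% by the second quantifier. The first junction printed above is therefore that of the form with the most TPM by both programs. The second is not particular to Mapt-201, as Mapt-203 and the fragment Mapt-207 also join that exon end to the first insert.

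Over the 9 Mapt transcripts that span the choice, those with 0 inserts held 75.2% of TPM in replicate 1 and 76.6% in replicate 2, those with 1 insert 15.4% and 14.5%, and those with 2 inserts 9.39% and 8.92%. By the second quantifier, 0 inserts held 76.9% and 78.9%, 1 insert 8.97% and 9.77%, and 2 inserts 14.1% and 11.4%, in replicates 1 and 2. The order of 1 insert against 2 inserts was thus reversed by the program. The class with 1 insert consists of Mapt-207 alone, an annotated fragment of 293 bases with the first insert. A full-length form with 1 insert has no model among them, so its share could not be measured. Mapt-209, a retained-intron model at 6.33 TPM in replicate 1 and 3.85 TPM in replicate 2, is counted among those with 0 inserts. Mapt-207 held 14.6% of gene TPM in replicate 1 and 13.9% in replicate 2, but this came from 70.9 and 80.1 counts. Its share therefore rests on few reads divided by a short length. Mapt-208, a fragment of 418 bases with the first insert, lies outside the 9 spanning transcripts and had 1.62 TPM in replicate 1 and 3.10 TPM in replicate 2.

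The 3′ ends of the tau models are unequal. Mapt-204 alone has the long last exon of 4119 bases, with 3906 bases after the coding sequence, whereas Mapt-201 has 35 bases there. Reads from the long 3′ end could be given to Mapt-204 only, whatever N-terminus their molecule had. Of the expected counts of transcripts spanning the choice, 95.5% in replicate 1 and 96.1% in replicate 2 went to forms without inserts. The share of tau forms is thus a share among models with unlike ends.

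Mapt-203, whose exon of 759 bases at chr11:104298498-104299256 encodes the long insert of peripheral, or big, tau, had 4.46 TPM in replicate 1 and 1.38 TPM in replicate 2. Mapt-202, with the same exon shortened to 711 bases, had 0.06 TPM in replicate 1 and 1.13 TPM in replicate 2. Both libraries held little of either, and Mapt-203 was the higher of the pair in each.

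**Figure D2:**
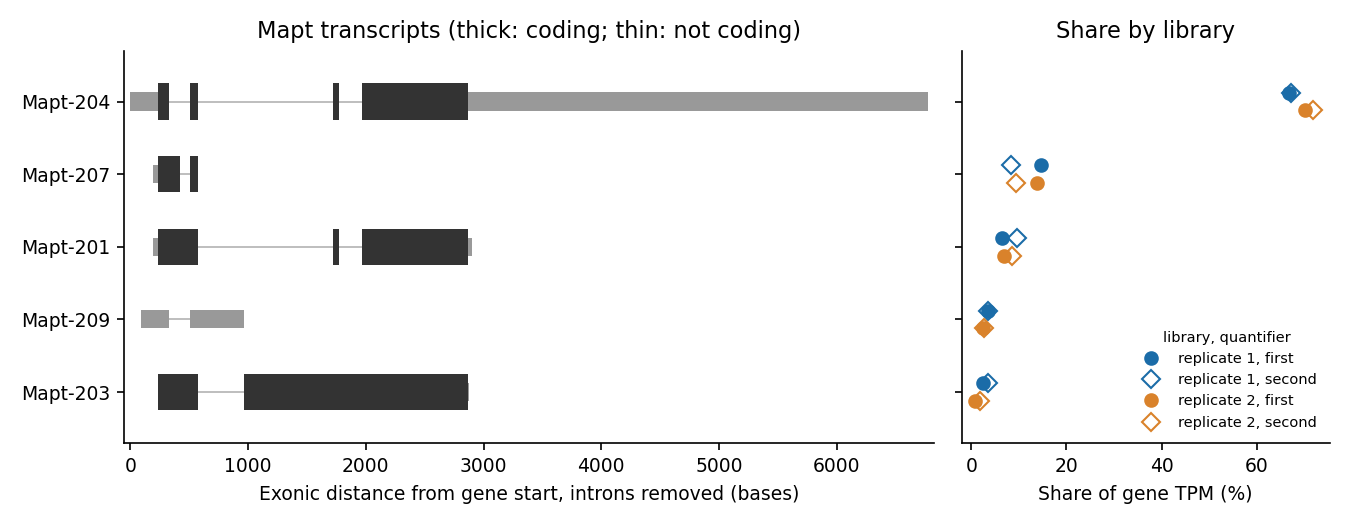
Left, exons of the main Mapt transcripts against exonic distance in bases with introns removed; right, share of gene TPM in percent by library and quantifier. Mapt-204 holds 66.8 to 71.8% and is alone in having the long noncoding 3′ end, and Mapt-207 is a short fragment.

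Map2 RNA was divided between the high- and low-molecular-weight forms. Map2-204, of 6258 bases with a coding sequence of 5484 bases, is the only transcript that contains the whole long exon. It held 42.7% of Map2 TPM in replicate 1 and 43.5% in replicate 2, a mean of 43.1 ± 0.587% (SD, n = 2), and 38.3% and 38.8% by the second quantifier. The low-molecular-weight Map2-201, with a coding sequence of 1401 bases, held 23.2% in replicate 1 and 28.7% in replicate 2, and 26.0% and 27.0% by the second quantifier. Together with Map2-202 and Map2-205, which encode a coding sequence of the same length, it held 30.8% in replicate 1 and 32.5% in replicate 2, and 27.4% and 29.2% by the second quantifier. These 3 transcripts differ outside their coding sequence, and reads of what they share can be divided among them in several ways. Map2-202 alone held 6.36% in replicate 1 and 1.67% in replicate 2, but 0.084% and 0.28% by the second quantifier.

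Among the 8 transcripts that either keep or leave out the long exon, Map2-204 held 54.4% of TPM in replicate 1 and 55.0% in replicate 2. The second quantifier gave 53.0% and 53.6%, so the share was alike in both animals and by both programs. As for tau, the ends of the models differ: the low-molecular-weight forms have last exons of up to 3792 bases, against 397 bases for Map2-204. Reads of the long 3′ end could therefore be given to low-molecular-weight forms only. Map2-215, Map2-216 and Map2-223, fragments that begin the long exon and stop within it, held a further 6.49% of gene TPM in replicate 1 and 6.94% in replicate 2, and 15.4% and 17.4% by the second quantifier. Of these, Map2-216 held 4.19% in replicate 1 and 3.84% in replicate 2, but 12.6% and 13.0% by the second quantifier. The 546-base fragment Map2-218, from the 5′ end, held 4.86% in replicate 1 and 5.90% in replicate 2, and 6.53% and 7.18% by the second quantifier.

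**Figure D3:**
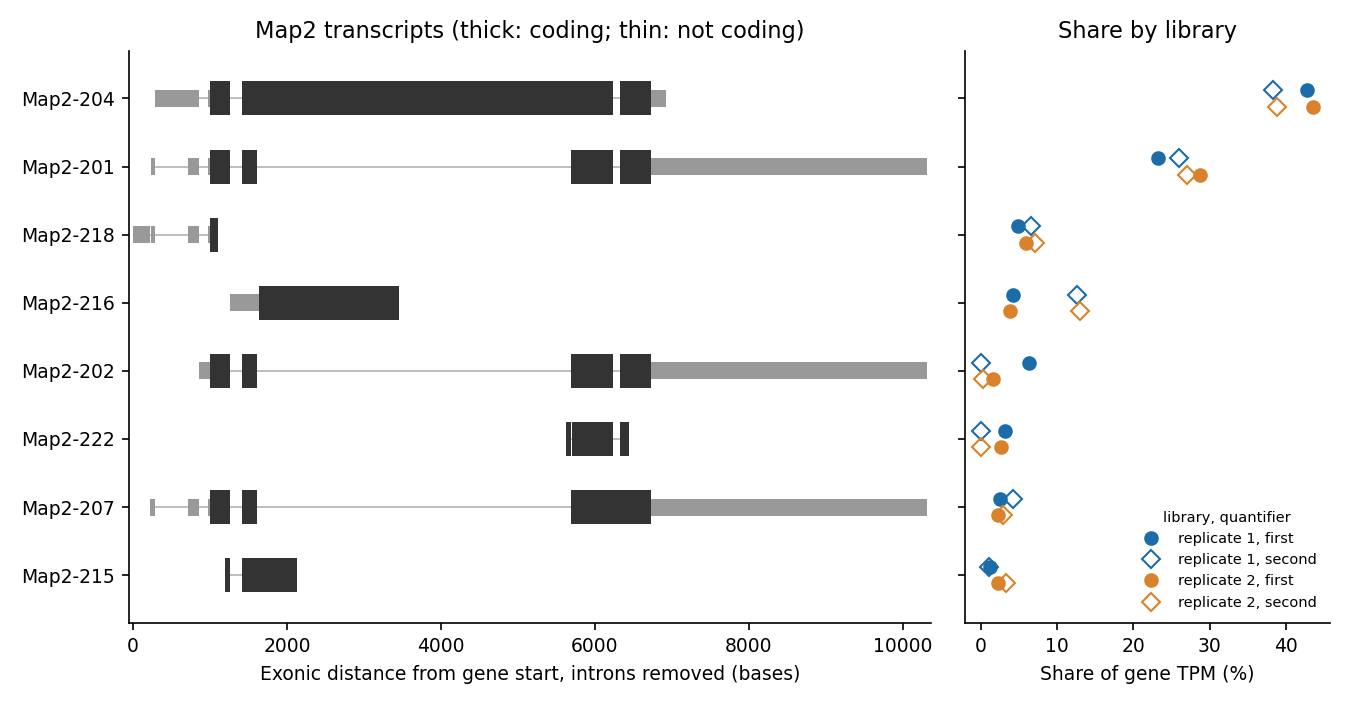
Left, exons of the main Map2 transcripts against exonic distance in bases with introns removed; right, share of gene TPM in percent by library and quantifier. Map2-204 holds 38.3 to 43.5% and is the only form with the whole long coding exon, while Map2-201, Map2-202 and Map2-207 share the long noncoding 3′ end.

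Among the annotated models, the optional binding repeat was rare in Map2 and common in Map4. Of the 11 Map2 transcripts that span the 93-base exon, the 4 that keep it held 3.25% of these transcripts' TPM in replicate 1 and 2.83% in replicate 2, and 5.92% and 3.99% by the second quantifier. The main transcript that keeps it is Map2-207, with 1015 counts in replicate 1 and 1073 in replicate 2. No Map2 model has both the whole long exon and the repeat exon. The share of a high-molecular-weight form with the repeat could therefore not be measured. Map2-204 alone gave 228 of the 422 TPM without the repeat in replicate 1, and 209 of 381 TPM in replicate 2. Of the 9 Map4 transcripts that span the exon, the 7 that keep it held 92.6% of these transcripts' TPM in replicate 1 and 93.4% in replicate 2, and 81.9% and 82.7% by the second quantifier. Map4-214, which leaves it out, had 11.3 TPM in replicate 1 and 10.4 TPM in replicate 2, and 23.8 and 23.4 TPM by the second quantifier. Among these models, the exons printed above for Map2 and Map4 were thus used in opposite proportions. The libraries of the genes were far apart by both programs, but the Map2 share depends in part on which forms have a model.

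**Figure D4:**
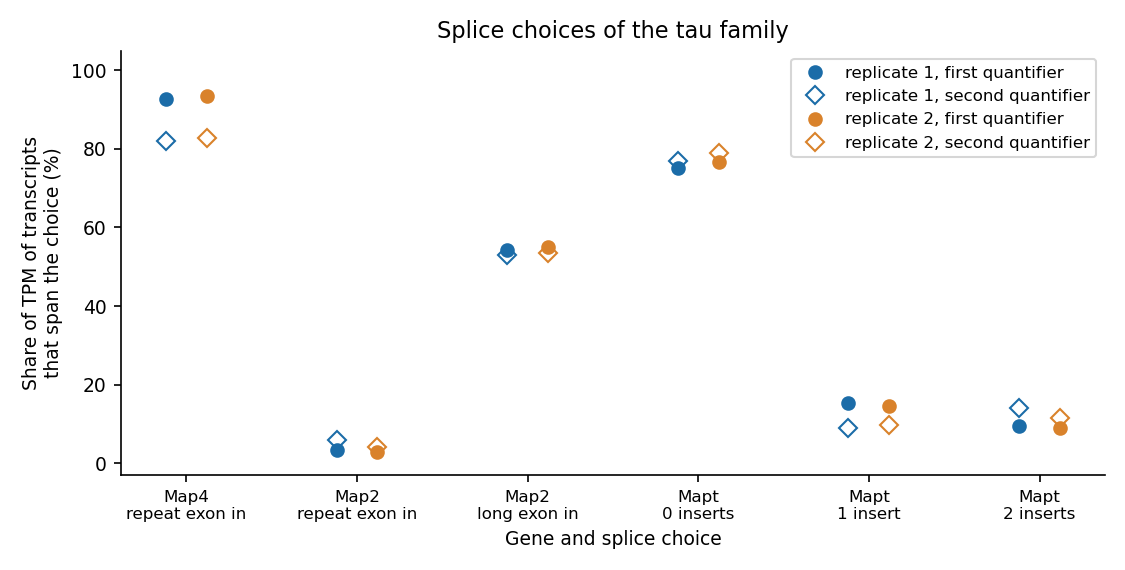
Share of TPM, in percent, of the transcripts that keep the Map4 or Map2 repeat exon, the long Map2 exon or 0, 1 or 2 tau inserts, among those that span each choice; circles are the first quantifier and diamonds the second. By the first quantifier, the repeat exon is in 92.6 and 93.4% of the TPM of spanning Map4 transcripts and in 3.25 and 2.83% for Map2.

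The leading transcript of Map4, Map4-204, held 30.0% of gene TPM in replicate 1 and 29.7% in replicate 2, and 22.0% and 21% by the second quantifier. Its coding sequence spans 2799 bases. Its share was the lowest of a leading transcript among the 8 genes by the first quantifier. Map4-209, a processed transcript of 940 bases with no coding sequence, held 19.6% in replicate 1 and 21.2% in replicate 2, and 16.2% and 18.1% by the second quantifier. Map4-206, with a short coding sequence of 297 bases before a last exon of 2994 bases, held 18.1% in replicate 1 and 18.9% in replicate 2, and 20.8% and 20.7% by the second quantifier. Much of Map4 TPM was thus on models with a short coding sequence or none, at like shares in both animals. Short models weigh more in TPM than in counts. Of the Map4 counts, Map4-209 took 5.66% on average, Map4-206 20.4% and Map4-204 47.5%. For Map1a, Map1a-202 led with 80.7% in replicate 1 and 78.0% in replicate 2, and 88.6% in both libraries by the second quantifier. Map1b-201, with the full coding sequence of 7392 bases, held 74.4% in replicate 1 and 72.0% in replicate 2, and 76.6% and 70.8% by the second quantifier. By counts, Map1b-201 took 95.4% of its gene on average.

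The models of Map6 were divided less evenly between the animals. Map6-205 held 54.3% in replicate 1 and 63.9% in replicate 2, and 24.2% and 39.2% by the second quantifier. With Map6-201, whose coding sequence has the same 2718 bases, it held 54.3% in replicate 1 and 68.5% in replicate 2, and 36.6% and 52.6% by the second quantifier. Both programs placed this full-length coding class lower in replicate 1. Map6-204, which has a coding sequence of 1704 bases and a long 3′ end, held 23.8% in replicate 1 and 13.1% in replicate 2, and 18.9% and 11.5% by the second quantifier. Map6-202 and Map6-206, which share a coding sequence of 918 bases, traded places by the first quantifier. Map6-202 held 16.2% in replicate 1 and 2.29% in replicate 2, and Map6-206 0% and 12.1%. Their sum was 16.2% in replicate 1 and 14.4% in replicate 2, and 14.6% and 13.5% by the second quantifier, so the sum differed less between the animals than either share. The processed transcript Map6-209 was listed at 0 in both libraries by the first quantifier but held 22.7% in replicate 1 and 18.3% in replicate 2 by the second. The counts behind Map6-205 were 1321 in replicate 1 and 1835 in replicate 2.

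Map7d2-203 led its gene with 85.4% in replicate 1 and 78.1% in replicate 2, and 76.4% and 67.1% by the second quantifier. Map7d2-204 was listed at 0% in replicate 1 and held 8.62% in replicate 2, and 5.35% and 13.9% by the second quantifier. Map7d1-203, with a coding sequence of 2442 bases, held 44.3% in replicate 1 and 44.3% in replicate 2, but 26.5% and 22.0% by the second quantifier. The shorter coding form Map7d1-202 held 15.0% in replicate 1 and 21.7% in replicate 2, and 13.4% and 19.4% by the second quantifier. Both programs placed it lower in replicate 1. The second quantifier placed Map7d1-206 first, with 45.3% in replicate 1 and 42.0% in replicate 2, against 19.5% and 9.05% by the first quantifier. Map7d1-206 is a retained-intron model of 374 bases with 94.4 counts in replicate 1 and 50.4 in replicate 2 by the first quantifier. By the second quantifier, this short model alone had 67.7 TPM in replicate 1 and 56.1 TPM in replicate 2, beside 149 and 134 TPM for the whole gene.

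Total RNA also holds unspliced RNA, and 8 of the 9 retained-intron transcripts of these genes had a higher TPM in replicate 1. Over all such transcripts at a mean of 1 TPM or more, 82.4% were higher in replicate 1, so the count is near the background and is no result about these genes. The largest were Map2-212, at 11.5 TPM in replicate 1 and 4.50 TPM in replicate 2, and Map7d1-206, at 24.4 and 9.67 TPM. Map2-224, at 6.05 TPM in replicate 1 and 7.24 TPM in replicate 2, was the exception. Protein-coding transcripts at 1 TPM or more were higher in replicate 1 for 27 of 44, against 57.7% of all such transcripts. Processed transcripts were higher in replicate 1 for 5 of 11, against 67.4% of all. An annotated unspliced locus inside Map1b on the same strand, 5330431K02Rik, had 8.26 TPM in replicate 1 and 2.85 TPM in replicate 2. Antisense genes within Mapt, Map1a, Map2 and Map4 were at 0.03 TPM or less in both libraries. Ppip5k1, which overlaps the 3′ end of Map1a on the opposite strand, had 64.6 TPM in replicate 1 and 50.3 TPM in replicate 2. Whether counting used strand is not stated, so reads of that overlap may not be told apart.

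Of 61 other microtubule genes grouped by role, 58 were at 1 TPM or more in both libraries, beside 59.1% of all nuclear protein-coding genes. The list holds genes known from neurons, so this share is a description of the list. The mean level of 35 of the 61 lay above that of Map6, and none lay above that of Map2. Only Map7d3, at 0.10 TPM in replicate 1 and 0.15 TPM in replicate 2, was 1.5-fold or more apart. It was below the detection level and did not reach a CPM of 1 in either library. Of all genes that reached that CPM in a library, 14% were 1.5-fold or more apart. Among nuclear protein-coding genes at a mean of 10 TPM or more, the share was 1.57%. The median level was 53.2 TPM, against 234 TPM for the 8 genes.

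Among other structural proteins, 12 of 13 were detected. The doublecortin-like kinase gene Dclk1 was the highest, at 285 TPM in replicate 1 and 280 TPM in replicate 2, and Map7d3 the lowest. The stathmins, which bind free tubulin, were all 4 detected, from Stmn4 at 109 TPM in each library to Stmn3 at 293 TPM in replicate 1 and 313 TPM in replicate 2. The libraries of Stmn3 overlapped those of Map4 and Map1a. The LC3 light chains, which bind MAP1 proteins and mark autophagosomes, were Map1lc3a, at 102 TPM in replicate 1 and 121 TPM in replicate 2, and Map1lc3b, at 90.0 and 85.6 TPM.

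All genes listed under plus-end and minus-end proteins were detected. Of the 12 genes listed under plus-end proteins, Clip3 was the highest, at 172 TPM in replicate 1 and 158 TPM in replicate 2. Slain2 was the lowest, at 12.2 and 11.4 TPM. The list groups genes by name and family, and where each protein acts was not tested. Of the 3 minus-end genes, Camsap1 had 77.3 TPM in replicate 1 and 63.2 TPM in replicate 2, and Camsap3 15.7 TPM in each library. Severing enzymes were the lowest role, with 5 of 7 detected. They ran from Fignl1, at 0.32 TPM in replicate 1 and 0.37 TPM in replicate 2, to the katanin-like Katnal1, at 36.2 and 28.9 TPM.

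Genes of enzymes that phosphorylate or dephosphorylate these proteins, and of their activators and subunits, were also on the list. All of those listed were detected. The 12 genes of kinases and of the Cdk5 activators Cdk5r1 and Cdk5r2 include kinases known to act on tau. They ran from Mark1, at 25.3 TPM in replicate 1 and 23.5 TPM in replicate 2, to Gsk3a, at 106 and 108 TPM. Protein phosphatase 2A is the main tau phosphatase, and all 8 of its subunit genes on the list were detected. They ran from Ppp2r1b, at 9.48 TPM in replicate 1 and 7.97 TPM in replicate 2, to the scaffold gene Ppp2r1a, at 251 and 253 TPM. Mapt itself, at 178 TPM in replicate 1 and 157 TPM in replicate 2, was above each of the 12 kinase and activator genes in both libraries.

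**Figure D5:**
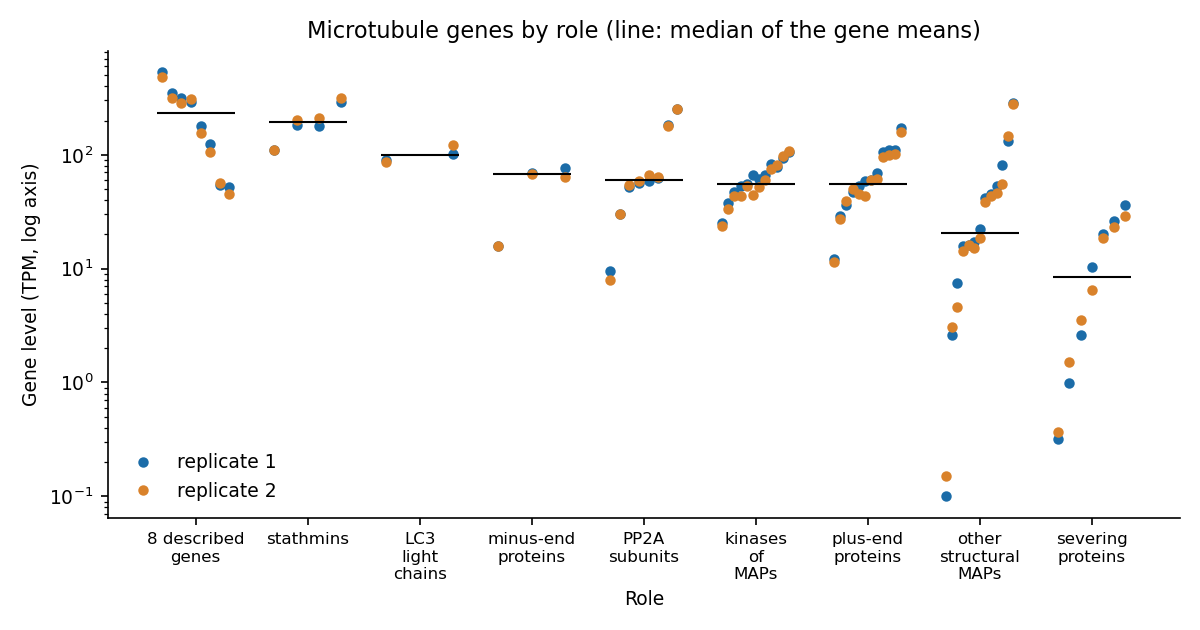
Gene level in TPM (log axis) in each library for the 8 described genes and 61 others by role; each pair of points is a gene and each line the median of the gene means. The 8 genes have the highest median, 234 TPM, and the severing proteins the lowest, 8.42 TPM.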

How the data were processed

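Total RNA-seq of hippocampus from 2 mice, 1 library each and 1 group, was analysed from the tables the authors deposited. The assembly is mm10 with GENCODE M21 per the submitters' processing notes. Names and versions of the aligner and counter were not given in the sources used here. Gene tables and first transcript tables have the columns of RSEM, and the second transcript tables those of kallisto. The authors deposited expected counts (reads after division of shared reads, not scaled), TPM (per length, scaled to the same sum per library), the percent of gene TPM per transcript, and bounds of TPM as a signal range whose level is not given. How reads of the CAST/EiJ allele aligned to mm10 was not tested. Rows naming no gene took 0.210% of counts in replicate 1 and 0.243% in replicate 2 and were left out.

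From these, the mean and SD of TPM over 2 libraries were taken, the second quantifier's transcripts were summed per gene, and log2 ratios of replicate 1 over replicate 2 were computed with edgeR 4.0.16 in R 4.3.3 on counts rounded to whole numbers (TMM, prior count 2, genes with CPM of 1 or more in a library). This step was tested on simulated data. With 1 group no p-value was computed. Splice classes were read from the exon structures, and sequences from the GENCODE M21 transcripts. One sequence and the result that needs it are not reported here. All 8 genes are named; of each list of other genes, the highest, the lowest and any gene 1.5-fold apart; of Mapt and Map2, transcripts of 5% or more by either quantifier; of the other genes, the leading transcript. Transcripts outside this rule, marker sums and overlapping loci were chosen after their values were seen. The genes and lists were chosen with earlier results of these data known. Alternatives were the quantifier, scaling, filter, fold, prior count, TPM bounds, shares by counts and leaving out each library. Nothing says that the animals were of separate litters, and the labels give both the same donor entry.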

Additional observations from a re-analysis of the deposited data

How the results depend on the processing

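By the second quantifier, mean TPM was 139.2 for Mapt, 232.4 for Map1a, 273 for Map1b, 437.3 for Map2, 268.2 for Map4, 141.5 for Map7d1 and 50.89 for Map7d2, each moved by more than 1 SD. Rescaled to the same sum over nuclear protein-coding genes, which held 508131 TPM in replicate 1 and 485056 TPM in replicate 2, means were 336.8 for Mapt, 607.3 for Map1a, 667.5 for Map1b, 1020 for Map2, 608 for Map4, 97.78 for Map6, 233.2 for Map7d1 and 111.4 for Map7d2. Without a filter, 8159 of 26899 genes with any count were 1.5-fold or more apart, against 2265 of 16123. By the second quantifier, mean shares were 38.55% for Map2-204, 6.853% for Map2-218, 12.79% for Map2-216, 8.886% for Mapt-207 and 9.126% for Mapt-201. By expected counts, which are not divided by length, they were 56.04% for Map2-204, 0.5068% for Map2-218, 1.775% for Map2-216, 94.45% for Mapt-204, 0.7385% for Mapt-207 and 2.255% for Mapt-201. Alternatives chosen after seeing the data gave, by the second quantifier, a repeat exon share of 4.954% in Map2 and 82.33% in Map4, 53.31% for the long Map2 exon and 77.89% for tau without inserts; the cause was not tested. Leaving out a library leaves the other's value, which with 2 libraries always lies within 1 SD of the mean, so this says nothing about stability. The count of 0 of 8 genes apart was the same under total-count and ERCC scaling. At 2-fold it could not differ, since none was past 1.5-fold. No paired analysis was possible because both libraries belong to 1 group. Depth limits the share of Mapt-207, which rests on 70.9 counts in replicate 1 and 80.1 in replicate 2.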
